A study of Zea mays with 12 samples.

Results

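Messenger RNA of maize (Zea mays) was measured in 12 libraries of whole plants, and 6 of the 52932 genes in the deposited table are described here, each among the 10 strongest named inductions by the Bacillus strain BV-3 in the susceptible disease class. The genes encode the transcription factor bHLH041 (Zm00001eb284130), the membrane protein DMP3 (Zm00001eb371930), the exporter ABC transporter G family member 36, written ABCG36 (Zm00001eb357950), the amino acid importer LHT1 (Zm00001eb261480), a tyrosine N-monooxygenase (Zm00001eb385020) and the MADS-box protein m15 (Zm00001eb214750). They were chosen on how far BV-3 libraries exceeded CK libraries in the susceptible class, so that difference is a description for them and carries no test.

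The labels define 4 groups of 3 libraries each, with or without BV-3 in each disease class, named CK or BV-3 and susceptible or resistant. BV-3 is the inoculated Bacillus strain and CK is taken as the control without it. No group was given a pathogen by its label, and plant age, harvest time and inoculum are not stated. The titles carry a code that follows the disease class, 986 or 801 in CK libraries and gan or kang in BV-3 libraries, with no explanation of whether it names a maize line. Libraries of 1 group are separate biological samples by their labels. Levels are in FPKM (fragments per kilobase of a gene and per M fragments mapped), and log2 fold changes come from edgeR's quasi-likelihood test on the raw counts, each with its standard error (SE).

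Plants that meet a bacterium can shift gene control, transport and amino acid and secondary metabolism. Factors of the bHLH class bind DNA as dimers and switch other genes on or off. LHT1 carries amino acids into cells in Arabidopsis, ABCG36 carries defence compounds out across the plasma membrane in Arabidopsis, and tyrosine N-monooxygenase turns tyrosine into an aldoxime, the first step towards cyanogenic glucosides in sorghum. DMP proteins are small membrane proteins, one of which in maize is known for haploid induction, and relatives of m15 in rice act in the switch from leaf to flower formation.

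Several libraries departed from their labels or from their group. Total counts were 27 to 37.8 M per library. In the BV-3 libraries, 246 genes were present in the susceptible class alone and 339 in the resistant class alone. The first CK susceptible library held 98% of susceptible and 0.59% of resistant markers, whereas the second and the third CK susceptible libraries held 0.813 and 1.63% of susceptible and 94.4 and 95% of resistant markers. These 2 libraries went against their label, and log2 fold changes in the susceptible class are given below with and without them. None of the 6 genes was such a marker (0 of 6). The second CK resistant library also stood apart: its ribosomal protein genes summed to 81335 FPKM against 9609 to 21527 FPKM elsewhere. As for the tissue label, the 86 leaf genes for light harvesting and photosystem II summed to 21507 to 28931 FPKM in CK susceptible, 10169 to 22155 in BV-3 susceptible, 1010 to 12692 in CK resistant and 9192 to 28696 in BV-3 resistant, with the second CK resistant library lowest. Of 6 root genes for the Casparian strip, 4 reached 1 FPKM in that library and 0 to 2 in the other libraries. They summed to 15.2 FPKM there, to 7.22 FPKM in the second BV-3 resistant library and to at most 4.72 FPKM elsewhere. The label says whole plant, and 6 genes of 1 family give little basis for how much root a library held. In such bulk samples, fewer cells of a type and less RNA per cell cannot be told apart.

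The rule's own values come first, without a test. Among the 577 named genes that were called higher in BV-3 susceptible, did not overlap CK susceptible and had a mean of at least 5 FPKM, the 6 genes took ranks 1, 2, 5, 7, 9 and 10 by log2 fold change. The last inside was the tyrosine N-monooxygenase at 5.26 ± 1.30 (SE), and the first outside was liguleless 3 at 5.20 ± 1.21. The other 4 places held a jasmonate O-methyltransferase (Zm00001eb199360), alternative oxidase AOX3, WRKY transcription factor 1 and pyruvate decarboxylase 1, between 6.96 and 5.99. All 6 genes passed the filter on low counts. Each lay higher in every BV-3 susceptible library than in every CK susceptible one, as did 18.6% of the 34291 genes tested, a count that the choice of genes fixes.

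**Figure D1:**
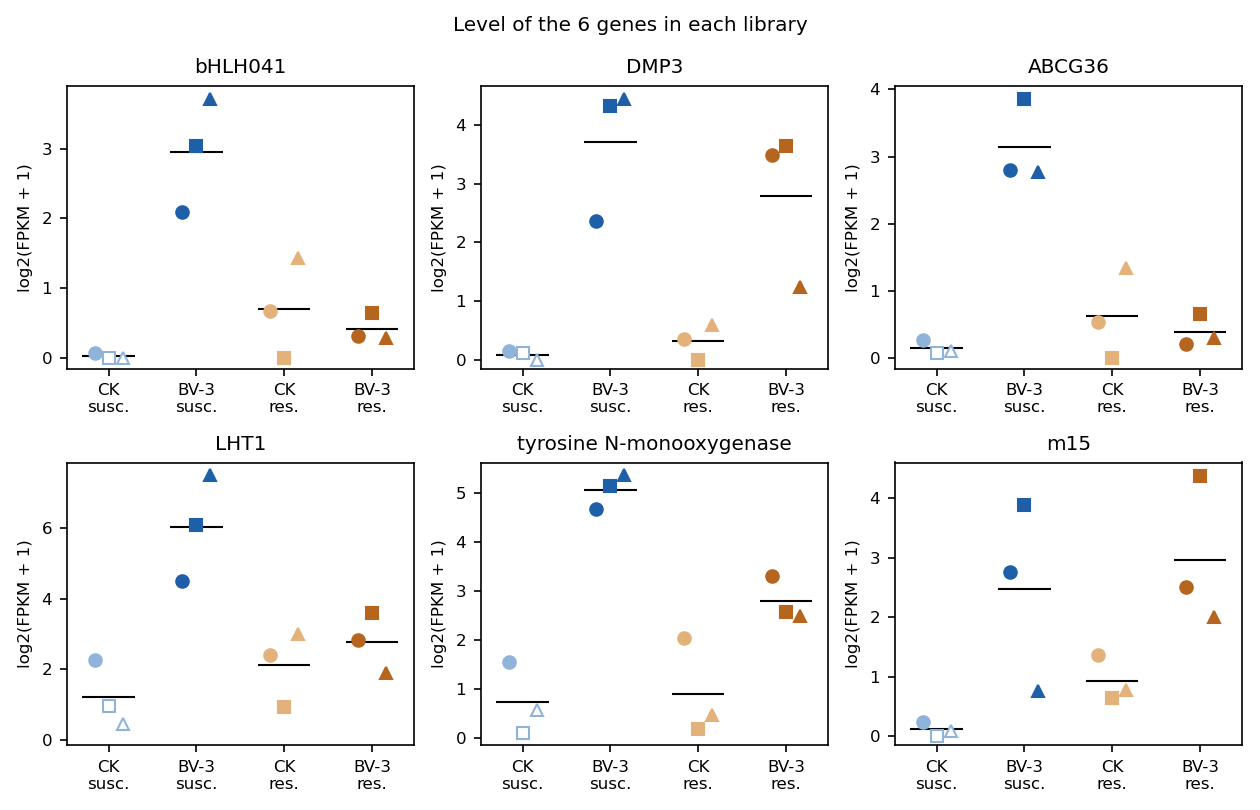
Each panel shows log2(FPKM + 1) of one gene in the 12 libraries, by group, with circles, squares and triangles for replicates 1, 2 and 3, open symbols for the 2 CK susceptible libraries whose line markers go against the label, and a bar at the group mean. DMP3, the tyrosine N-monooxygenase and m15 are higher in the 3 BV-3 resistant libraries than in the 3 CK resistant ones, while bHLH041 and ABCG36 stay under 2 FPKM in all 6 resistant libraries.

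bHLH041 was nearly silent without BV-3 in the susceptible class and reached a moderate level with it. The CK susceptible libraries had 0.0517, 0 and 0 FPKM, and the BV-3 susceptible libraries had 3.27, 7.19 and 12.1 FPKM. In raw counts these were 2, 0 and 0 against 137, 288 and 436. The log2 fold change was 8.46 ± 1.75 (SE), and 7.02 ± 2.52 without the second and the third CK susceptible libraries. The fitted value depends on how near-empty libraries are treated, and the ratio of mean CPM (counts per M counts) in BV-3 susceptible to that of the first CK library was 144, with a 95% counting interval from 39.9 to 1191.

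Among resistant plants bHLH041 was low with and without BV-3. The CK resistant libraries had 0.595, 0 and 1.69 FPKM, and the BV-3 resistant libraries had 0.243, 0.559 and 0.222 FPKM, so the groups overlapped. The log2 fold change was -1.09 ± 1.24 (SE; edgeR adjusted p = 0.801, and exact 2-sided permutation p = 0.6, where 3 against 3 cannot go below 0.1). It became 0.12 without the third CK resistant library. By mean level the order was BV-3 susceptible (7.54 ± 4.45 FPKM, SD, n = 3), CK resistant (0.762 ± 0.858), BV-3 resistant (0.342 ± 0.189) and CK susceptible (0.0172 ± 0.0299). BV-3 susceptible stood clear of the next group, the resistant groups overlapped, and CK susceptible lay below BV-3 resistant in every library.

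m15, the other transcription factor, differed from bHLH041 in that its mean was higher under BV-3 than under CK in both classes. The CK susceptible libraries had 0.181, 0 and 0.0672 FPKM and the BV-3 susceptible ones 5.75, 13.8 and 0.694 FPKM. The third BV-3 susceptible library was thus 19.8-fold below the second, though still above every CK susceptible library. The log2 fold change was 6.01 ± 1.40 (SE), and 4.93 ± 1.93 without the 2 CK libraries that went against their label. In the third BV-3 library the clock gene gigantea1 stood at 229 FPKM against 9.64 and 7.19 in the others of its group, and the morning clock gene LHY (Zm00001eb172450) at 198 against 871 and 1055; their part in the low value of m15 was not tested.

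Resistant libraries had 1.57, 0.563 and 0.719 FPKM of m15 under CK and 4.7, 19.8 and 3 FPKM under BV-3. All BV-3 values lay above all CK values. Its log2 fold change was 3.00 ± 1.19 (SE) and did not pass edgeR's test after adjustment (unadjusted p = 0.0284, adjusted p = 0.456; exact permutation p = 0.1). BV-3 resistant had the highest mean of the 4 groups (9.18 ± 9.27 FPKM, SD, n = 3), ahead of BV-3 susceptible (6.74 ± 6.59), and these groups overlapped. CK resistant (0.949 ± 0.54) overlapped BV-3 susceptible through the third BV-3 library, and CK susceptible (0.0827 ± 0.0915) lay below CK resistant in every library.

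LHT1 had the highest mean of the 6 genes in BV-3 susceptible and varied more than the other transporter among those libraries. It had 3.75, 0.943 and 0.366 FPKM under CK and 21.6, 66.7 and 181 FPKM under BV-3 in the susceptible class. The highest of the BV-3 libraries was 8.37-fold above the lowest, which was itself 5.75-fold above the first CK library. On the log2 scale the change was 5.56 ± 1.17 (SE), and 4.37 ± 1.60 without the 2 CK libraries that went against their label.

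LHT1 overlapped between the resistant groups. Its levels were 4.26, 0.895 and 7.01 FPKM under CK and 6.14, 11 and 2.71 FPKM under BV-3. By edgeR the log2 fold change was 0.76 ± 0.97 (SE; edgeR adjusted p = 0.833, exact permutation p = 0.5), and 0.29 without the second CK resistant library. BV-3 susceptible (89.6 ± 81.9 FPKM, SD, n = 3) stood clear of BV-3 resistant (6.6 ± 4.15), which overlapped CK resistant (4.06 ± 3.06), which in turn overlapped CK susceptible (1.69 ± 1.81).

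ABCG36, the other transporter, followed bHLH041 more closely than LHT1. The CK susceptible libraries had 0.213, 0.0609 and 0.0751 FPKM, and the BV-3 susceptible libraries had 5.94, 13.5 and 5.85 FPKM. The lowest BV-3 library was 27.5-fold above the first CK library. This gave a log2 fold change of 6.11 ± 1.44 (SE), and 5.25 ± 2.35 without the 2 CK libraries that went against their label.

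Among resistant libraries ABCG36 had 0.459, 0 and 1.55 FPKM under CK and 0.159, 0.586 and 0.237 FPKM under BV-3, and the groups overlapped. The log2 fold change of -0.98 ± 1.17 (SE; edgeR adjusted p = 0.815, exact permutation p = 0.7) became 0.43 without the third CK resistant library. BV-3 susceptible (8.41 ± 4.36 FPKM, SD, n = 3) stood clear of the 3 other groups, which overlapped in the order CK resistant (0.669 ± 0.795), BV-3 resistant (0.327 ± 0.227) and CK susceptible (0.116 ± 0.0838).

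The tyrosine N-monooxygenase gave the most even response among BV-3 susceptible libraries. Its levels were 1.91, 0.0621 and 0.473 FPKM under CK and 24.5, 34.3 and 40.2 FPKM under BV-3, a 1.64-fold range between the BV-3 libraries. The lowest of them was 12.8-fold above the first CK library. Its log2 fold change was 5.26 ± 1.30 (SE), and 4.05 ± 1.68 without the 2 CK libraries that went against their label.

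Resistant plants had 3.13, 0.131 and 0.375 FPKM of this gene under CK and 8.86, 4.9 and 4.65 FPKM under BV-3, with no overlap. On the log2 scale the change was 2.37 ± 1.14 (SE) and did not pass edgeR's test (adjusted p = 0.516; exact permutation p = 0.1). Mean levels ran from BV-3 susceptible (33 ± 7.89 FPKM, SD, n = 3) through BV-3 resistant (6.14 ± 2.36) and CK resistant (1.21 ± 1.67) to CK susceptible (0.816 ± 0.972), and the CK groups alone overlapped among neighbours in that order.

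DMP3 had the largest log2 fold change of the 6 genes in the resistant class, though edgeR did not call it. In the susceptible class it had 0.102, 0.0808 and 0 FPKM under CK and 4.13, 19 and 20.7 FPKM under BV-3, with the lowest BV-3 library 40.4-fold above the first CK library. By edgeR the log2 fold change was 7.77 ± 1.54 (SE), and 7.06 ± 2.37 without the 2 CK libraries that went against their label.

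The resistant libraries had 0.273, 0 and 0.51 FPKM of DMP3 under CK and 10.2, 11.4 and 1.37 FPKM under BV-3. All BV-3 values lay above all CK values, and the means differed 29.3-fold, or 19.5-fold without the second CK resistant library. This gave a log2 fold change of 4.89 ± 1.33 (SE; edgeR unadjusted p = 0.00364, adjusted p = 0.345; exact permutation p = 0.1). DESeq2, the other count test run, gave 4.92 ± 1.17 with an adjusted p of 0.00283, so the call depends on the tool. BV-3 susceptible (14.6 ± 9.1 FPKM, SD, n = 3) overlapped BV-3 resistant (7.65 ± 5.47), which stood clear of CK resistant (0.261 ± 0.255), and that group overlapped CK susceptible (0.061 ± 0.054).

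**Figure D2:**
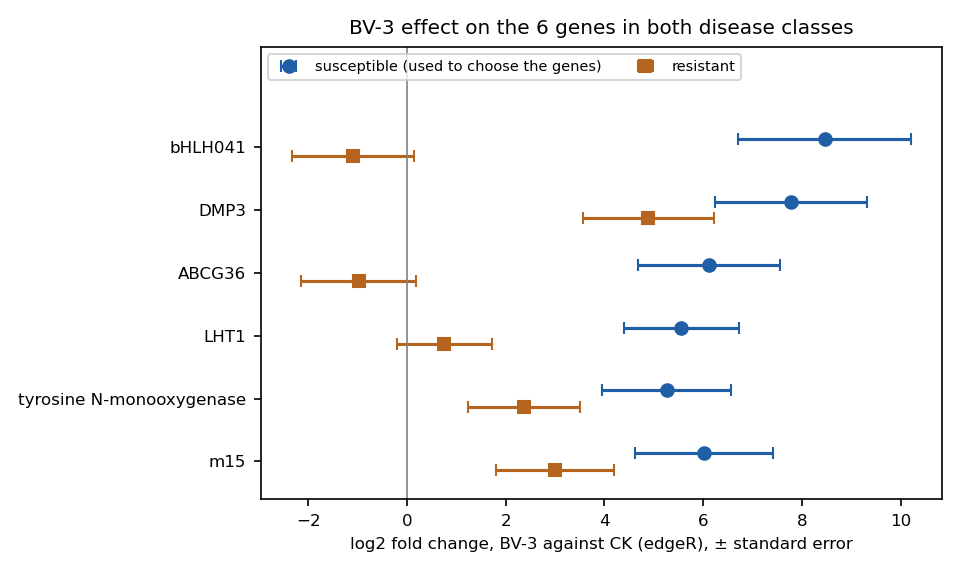
The plot of BV-3 effects gives the log2 fold change of each gene, BV-3 against CK, with bars of ± 1 standard error, as blue circles for the susceptible class (the values that chose the genes) and orange squares for the resistant class. The resistant values run from -1.09 for bHLH041 to 4.89 for DMP3.

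Across the 6 genes, the resistant class split them. BV-3 resistant lay above CK resistant in every library for 3 of 6, DMP3, the tyrosine N-monooxygenase and m15, against 7.71% of the 34291 genes tested and 27.9% of the 789 genes called higher in the susceptible class. None was called by edgeR (0 of 6, with 0% of all genes called in either direction), none by limma on log2(FPKM + 1), and 1 by DESeq2, which called 1.61% of all genes higher. At an unadjusted p under 0.05, edgeR gave 2 of 6 genes, DMP3 and m15, against 4.94% of all genes higher at that level. A p above the threshold does not show that a gene did not respond.

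The difference of the effects, resistant minus susceptible, carries the values that chose the genes and is therefore a description. On the log2 scale it was -9.55 ± 2.11 (SE) for bHLH041, -7.09 ± 1.81 for ABCG36 and -4.80 ± 1.44 for LHT1. It was smaller in size for m15 at -3.01 ± 1.64, for the tyrosine N-monooxygenase at -2.90 ± 1.57 and for DMP3 at -2.88 ± 1.74. These differences include the second and the third CK susceptible libraries, which went against their label. Without them the susceptible log2 fold change was smaller for each gene, as given above, and so is the size of each difference. Among BV-3 libraries alone, the mean in the susceptible class was 25.7-fold that in the resistant class for ABCG36, 22.1-fold for bHLH041, 13.6-fold for LHT1, 5.37-fold for the tyrosine N-monooxygenase, 1.91-fold for DMP3 and 0.734-fold for m15. For the first 4 of these every BV-3 susceptible library lay above every BV-3 resistant one, as for 14.7% of all genes tested, and the choice of genes used the BV-3 susceptible values.

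The 6 genes shared some of their highest and lowest libraries. The second CK resistant library, the one with high ribosomal and low leaf genes, was the lowest of its group for 6 of 6 genes, and the third CK resistant library was the highest for 4 of 6. The second BV-3 resistant library was the highest of its group for 5 of 6, the third BV-3 susceptible library for 4 of 6, and the first CK susceptible library for 6 of 6. How often all genes tested have the same order of libraries was not counted, so these patterns are not shown to be particular to the 6. The part of tissue make-up and of harvest time in these patterns was not tested, and LHY stood at 198 to 1163 FPKM in BV-3 libraries against 37.2 to 203 FPKM in CK libraries, so harvest time and BV-3 cannot be told apart.

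The likeness of patterns was measured as the root mean square difference of log2(FPKM + 1), centred on each gene's mean, over the 12 libraries, and is given as a description. Of the 15 pairs among the 6 genes, bHLH041 and ABCG36 were the closest at 0.42, and LHT1 and m15 the farthest at 1.86. DMP3 and the tyrosine N-monooxygenase lay 0.91 apart.

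Among 21851 other named genes, those nearest to bHLH041 were a second jasmonate O-methyltransferase gene (Zm00001eb270580, 0.41), glutathione S-transferase GST 34 (0.42) and carboxylesterase SOBER1 (0.43). The first makes methyl jasmonate, the volatile form of the wound hormone, and had 7.11 ± 5.05 FPKM (SD, n = 3) in BV-3 susceptible against 0.118 ± 0.204, 0.1 ± 0.0874 and 0.35 ± 0.562 in CK susceptible, CK resistant and BV-3 resistant. Nearest to ABCG36 were the transcription factor JAMYB (0.41), an AP2/EREBP factor (Zm00001eb407760, 0.42) and the RING-H2 finger protein ATL79 (0.42). ATL79 was listed at 0 in the 9 libraries outside BV-3 susceptible, where it had 4.65 ± 1.32 FPKM.

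LHT1 was nearest to alternative oxidase AOX3 (0.39), a mitochondrial enzyme that bypasses part of the respiratory chain, then to the senescence gene stay-green protein 1 (0.61), which acts in chlorophyll breakdown, and to berberine bridge enzyme-like 18 (0.71). AOX3 had 46.7 ± 49.3 FPKM in BV-3 susceptible against 0.554 ± 0.411 in CK susceptible. The tyrosine N-monooxygenase was nearest to another cytochrome P450 (Zm00001eb166680, 0.47), TIFY 11e (0.55), of the family of jasmonate repressors, and potassium transporter 27 (0.57). TIFY 11e had 217 ± 56.3 FPKM in BV-3 susceptible and 51.6 ± 19.7 in BV-3 resistant, against 12.6 ± 14.2 and 15.3 ± 6.21 in the CK groups.

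DMP3 was nearest to cationic amino acid transporter 1 (0.48), WRKY transcription factor 46 (0.59) and oligopeptide transporter 9 (0.64). WRKY 46 had 11.3 ± 3.9 FPKM in BV-3 susceptible and 9.15 ± 5.13 in BV-3 resistant, against 0.614 ± 0.227 and 1.31 ± 0.825 in the CK groups. m15 was nearest to the ubiquitin ligase EL5 (0.49), a glutathione S-transferase (Zm00001eb048110, 0.53) and the transcription factor MYB2 (0.60). EL5 had 8.24 ± 6.5 and 9.25 ± 6.79 FPKM in the BV-3 groups against 0.515 ± 0.77 and 0.721 ± 0.298 in the CK groups.

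The families and routes of the 6 genes were followed in 9 lists of genes, with the 6 left out. Of 415 tested list genes, 31 were called in the susceptible class, 15 higher and 16 lower, which is 7.47% against 6.2% of all genes (2.3% higher and 3.9% lower). Without the second and the third CK susceptible libraries only the first CK susceptible library remained, so that fit is used here for log2 fold changes alone. When any 1 of the BV-3 susceptible libraries was left out, edgeR called 0 list genes. For each called gene with a fold below, the log2 fold change without those 2 CK libraries follows the first one, and so it does for the list medians, where all genes had 0.07 in both fits. Every BV-3 susceptible library lay above the first CK susceptible library for all 15 genes called higher, and below it for 11 of the 16 called lower. The calls used these same libraries, so these counts are no separate support for them. The shares over all called genes were not counted. Among resistant libraries edgeR called 0 list genes, DESeq2 called 15 (3.61%, against 3.04% of all genes), and 43 reached an unadjusted p under 0.05 (10.4%, against 10.1% of all genes). For the difference between the classes edgeR called 0 list genes, DESeq2 called 16 (3.86%, against 4.95% of all genes), and 55 reached that unadjusted level (13.3%, against 13.7%).

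LHT genes import amino acids, and 2 of 13 were called higher and 0 lower in the susceptible class (15.4%, against 6.2% of all genes). Their median log2 fold change was 1.66 there (1.38 without the 2 CK libraries) and 0.89 in the resistant class, beside 0.07 and -0.07 over all genes. In the resistant class 0 of the 13 had every BV-3 library above every CK library, against 7.71% of all genes. A second gene described as LHT1 (Zm00001eb412940) rose with LHT1, from 1.09, 1.45 and 0.548 FPKM under CK to 5.67, 22.5 and 66.2 FPKM under BV-3 (log2 fold change 4.99 ± 0.85, edgeR adjusted p = 0.0382; 4.89 without the 2 CK libraries). In the resistant class it had 1.18, 0.381 and 0.802 FPKM under CK and 2.33, 2.14 and 1.02 under BV-3. Its lowest, middle and highest BV-3 susceptible libraries were the same as those of LHT1.

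LHT1 lies in a run of LHT genes. In RefSeq's gene order, matched by symbol, the gene before it (Zm00001eb261440) and the 3 genes after it (Zm00001eb261490, Zm00001eb261500 and Zm00001eb261510) are all described as LHT. Of these, Zm00001eb261500 was called higher, with 8.05 ± 2.02 FPKM in CK susceptible and 49.6 ± 28.1 in BV-3 susceptible (SD, n = 3; log2 fold change 2.63 ± 0.65, edgeR adjusted p = 0.0451; also 2.63 without the 2 CK libraries). The most abundant of the run, Zm00001eb261440, had 149, 75.1 and 66.6 FPKM under CK and 371, 418 and 418 FPKM under BV-3 and missed the threshold (log2 fold change 2.14, edgeR adjusted p = 0.082). In the resistant class these 2 genes had 10.6 ± 6.72 and 99.6 ± 83 FPKM under CK against 28.8 ± 14.9 and 158 ± 55.9 under BV-3. A further LHT gene, Zm00001eb261470, was not placed by symbol, though its identifier falls between those of Zm00001eb261440 and LHT1. It reached at most 0.563 FPKM in any library. The sequences of these genes were not compared here; where copies are alike, reads could be split between them, so single values of the run are uncertain.

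**Figure D3:**
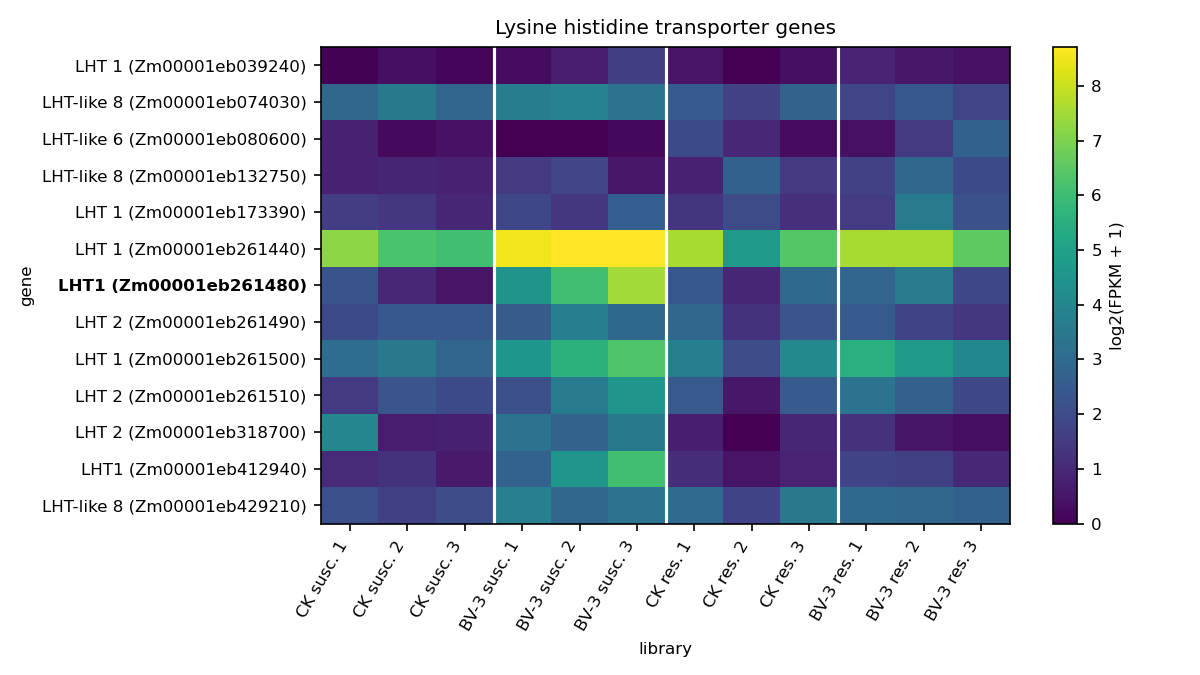
The heat map of lysine histidine transporter (LHT) genes shows log2(FPKM + 1) of LHT1 (bold) and the other LHT genes that reached 1 FPKM in a library, by row, in the 12 libraries by column, with white lines between groups. Zm00001eb412940 and LHT1 are brightest in the BV-3 susceptible columns and brightest of all in the third, while Zm00001eb261440 is bright in nearly every column.

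Of 65 other amino acid transporters, 4 were called higher and 5 lower in the susceptible class (13.8%, against 6.2% of all genes). Their median log2 fold change was 0.52, or 0.48 without the 2 CK libraries, and 0.31 in the resistant class. The higher ones included GABA transporter 1 (3.19 ± 0.527 to 19.8 ± 4.68 FPKM, CK to BV-3; log2 fold change 2.62, then 2.40; edgeR adjusted p = 0.0382) and cationic amino acid transporter 1, the gene nearest to DMP3 (0.659 ± 0.451 to 16.2 ± 10.3 FPKM; 4.63, then 4.60; adjusted p = 0.0398). The lower ones included a transmembrane amino acid transporter (Zm00001eb368680, 39.2 ± 23 to 2.18 ± 1.42 FPKM; -4.15, then -4.75; adjusted p = 0.0398) and AVT1C, of a family of vacuolar amino acid carriers (16.8 ± 19.7 to 0.0309 ± 0.0324 FPKM; -8.69, then -6.76; adjusted p = 0.0425). AVT1C stood at 4.07 FPKM in the first CK susceptible library.

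Of 62 ABCG transporters besides ABCG36, 3 were called higher and 2 lower in the susceptible class (8.06%, against 6.2% of all genes). Their median log2 fold change was 0.43, or 0.13 without the 2 CK libraries, and 0.56 in the resistant class. ABCG37 (Zm00001eb161790) went from 5.06 ± 4.27 FPKM under CK to 33.8 ± 8.47 under BV-3 (log2 fold change 2.65, edgeR adjusted p = 0.0478), but the first CK library alone stood at 9.97 FPKM and the value against it was 1.66. It had 3.54 ± 2.32 and 14.5 ± 6.18 FPKM in the resistant class, where the groups did not overlap. ABCG48 went from 0.544 ± 0.192 to 3.62 ± 0.803 FPKM (2.66, then 2.14; adjusted p = 0.0398). ABCG38 fell from 5.69 ± 1.88 to 1.75 ± 0.192 FPKM (-1.70, then -1.29; adjusted p = 0.0478). A model described as PDR12 was also called lower, from 0.929 ± 0.626 to 0.0161 ± 0.0279 FPKM (-5.71, adjusted p = 0.0427), with 0.23 FPKM in the first CK library and -3.75 against it alone. The gene next to ABCG36 in RefSeq's order, another ABCG37 (Zm00001eb357960), had a mean of at most 0.365 FPKM in any group.

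Secretion and callose genes build the wall barrier at which ABCG36 is known to gather in Arabidopsis. The search for them also took in genes described as MLO-like, which were not counted apart. Of 68 tested genes of this list, 1 was called higher and 4 lower in the susceptible class (7.35%, against 6.2% of all genes). Their median log2 fold change was 0.30, or 0.18 without the 2 CK libraries, and -0.14 in the resistant class. The higher one was syntaxin 132, a vesicle fusion protein (15.5 ± 2.15 to 39.1 ± 16.2 FPKM; log2 fold change 1.32, then 1.11; edgeR adjusted p = 0.0431). Callose synthase 8 fell (12.5 ± 0.935 to 5.2 ± 0.871 FPKM; -1.29, then -1.20; adjusted p = 0.0378). Callose synthase 7 was called lower too (1.69 ± 1.4 to 0.0361 ± 0.0411 FPKM; -5.31, adjusted p = 0.044), but stood at 0.0914 FPKM in the first CK library and at -1.19 against it alone. Callose synthase 10 (NewGene_26443) was also called lower but was at 0 in that library and in all BV-3 susceptible libraries.

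Of 132 bHLH factors besides bHLH041, 3 were called higher and 3 lower in the susceptible class (4.55%, against 6.2% of all genes). Their median log2 fold change was 0.55, or 0.39 without the 2 CK libraries, and 0.27 in the resistant class. A second gene described as bHLH041 (Zm00001eb160210) went from 1.45 ± 0.928 to 7.78 ± 1.87 FPKM (log2 fold change 2.37, edgeR adjusted p = 0.0486), with 2.46 FPKM in the first CK library and 1.60 against it alone. It had 3.03 ± 1.81 FPKM under CK and 8.7 ± 4.3 under BV-3 in the resistant class, where the groups overlapped. bHLH128 went from 38.6 ± 7.18 to 188 ± 35 FPKM (2.25, then 1.96; adjusted p = 0.0402), and its resistant groups, at 35.1 ± 16.3 and 84.8 ± 36.9 FPKM, did not overlap. RHL1 was called lower, from 21.6 ± 14.9 to 1.95 ± 0.252 FPKM (-3.45, adjusted p = 0.0398), but had 7.48 FPKM in the first CK library and -1.99 against it alone. bHLH49 (Zm00001eb276120) was also called lower but was at 0 in the first CK susceptible library as in all BV-3 susceptible ones.

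In sorghum, tyrosine N-monooxygenase opens a route to aldoxime products, and the substrate of the maize protein was not examined here. Of 11 other genes matched by the search for that route, 0 were called higher and 1 lower in the susceptible class. That is 9.09%, against 6.2% of all genes. Their median log2 fold change was -0.36, or -0.08 without the 2 CK libraries, and -0.29 in the resistant class. The pattern also caught genes off the route, such as carotene epsilon-monooxygenase and MICAL3. The gene called lower was a cytochrome P450 (Zm00001eb064510), which had 0, 4.32 and 3.16 FPKM in CK susceptible and 0, 0 and 0.0289 FPKM in BV-3 susceptible. Its presence thus followed the line markers, and against the first CK library no fold can be given. The next enzyme of the sorghum route, 4-hydroxyphenylacetaldehyde oxime monooxygenase (Zm00001eb305330), had 4.5, 10.1 and 4.93 FPKM under CK and 0.691, 1.15 and 5.7 FPKM under BV-3 in the susceptible class, so the groups overlapped.

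The table holds 3 other genes described as tyrosine N-monooxygenase. One (Zm00001eb219870) was at 0 in all 12 libraries, and one (Zm00001eb058180) reached at most 0.528 FPKM. The third (Zm00001eb219290) had 0.704, 0 and 0 FPKM in CK susceptible, 1.66, 1.92 and 1.48 in BV-3 susceptible, 0.0841, 0 and 0 in CK resistant and 1.56, 3.58 and 0.538 in BV-3 resistant. Its BV-3 libraries lay above its CK libraries in both classes, at levels far below the 24.5 to 40.2 FPKM of Zm00001eb385020.

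Tyrosine comes from the shikimate route. Of 47 genes of aromatic amino acid supply, 2 were called higher and 1 lower in the susceptible class (6.38%, against 6.2% of all genes). Their median log2 fold change was 0.30, or 0.19 without the 2 CK libraries, and 0.34 in the resistant class. Arogenate dehydratase/prephenate dehydratase 6, an enzyme on the branch to phenylalanine, went from 30 ± 17.5 to 189 ± 23.4 FPKM (log2 fold change 2.62, edgeR adjusted p = 0.0398), with 50.1 FPKM in the first CK library and 1.86 against it alone. Chorismate mutase 2, of the enzymes that open the branch to phenylalanine and tyrosine, went from 28.6 ± 10.2 to 112 ± 39 FPKM (1.94, then 1.45; adjusted p = 0.0475). Tyrosine aminotransferase, which removes the amino group of tyrosine, fell from 21.9 ± 0.835 to 8.14 ± 1.26 FPKM (-1.44, then -1.43; adjusted p = 0.0382) and had 10.6 ± 2.61 and 12.6 ± 1.28 FPKM in the resistant class.

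Of 8 other DMP genes tested, 0 were called in the susceptible class by edgeR, with 1 at an unadjusted p under 0.05 (26.7% of all genes) and 1 by DESeq2 (20.4% of all genes). The median log2 fold change was 0.88, or 1.16 without the 2 CK libraries, and 0.56 in the resistant class. Another gene described as DMP3 (Zm00001eb260090) had 3.88, 5.57 and 8.66 FPKM in CK resistant and 13.3, 16.3 and 9.54 FPKM in BV-3 resistant, with no overlap but an adjusted p of 0.485 in edgeR. In the susceptible class it had 1.35 ± 0.674 and 4.29 ± 2.01 FPKM (adjusted p = 0.0807). DMP5 had 1.97 ± 1.13 and 3.56 ± 1.18 FPKM in the susceptible class and overlapped between groups.

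Of 9 tested relatives of m15, 0 were called in the susceptible class by edgeR, with 2 at an unadjusted p under 0.05 and 1 by DESeq2, against the same 26.7% and 20.4% of all genes. The median log2 fold change was 1.28, fell to 0.41 without the 2 CK libraries, and was 1.07 in the resistant class. Those of the flowering type include AGL8, which had 1.68, 0 and 0 FPKM in CK susceptible, 9.73, 17.8 and 0.667 in BV-3 susceptible, 0, 1.91 and 0.201 in CK resistant and 4.94, 40.6 and 10.6 in BV-3 resistant. Like m15, it was lowest in the third of the BV-3 susceptible libraries and highest in the second BV-3 resistant library. Zea apetala homolog 1 was also lowest and highest in those libraries of the BV-3 groups, with 4.11, 2.42 and 0.107 FPKM in BV-3 susceptible and 0.653, 7.15 and 0.147 in BV-3 resistant, and 0 to 0.0442 FPKM in CK libraries. MADS-box transcription factor 18 had 24.3, 0 and 0.761 FPKM in CK susceptible and 28.9, 29.7 and 4.31 in BV-3 susceptible, so that the first CK library, the one carrying the susceptible markers, was close to the first and the second BV-3 libraries. In the resistant class it had 2.89, 21.8 and 13.9 FPKM under CK and 28.5, 49.8 and 31.9 under BV-3, with no overlap (edgeR adjusted p = 0.753).

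**Figure D4:**
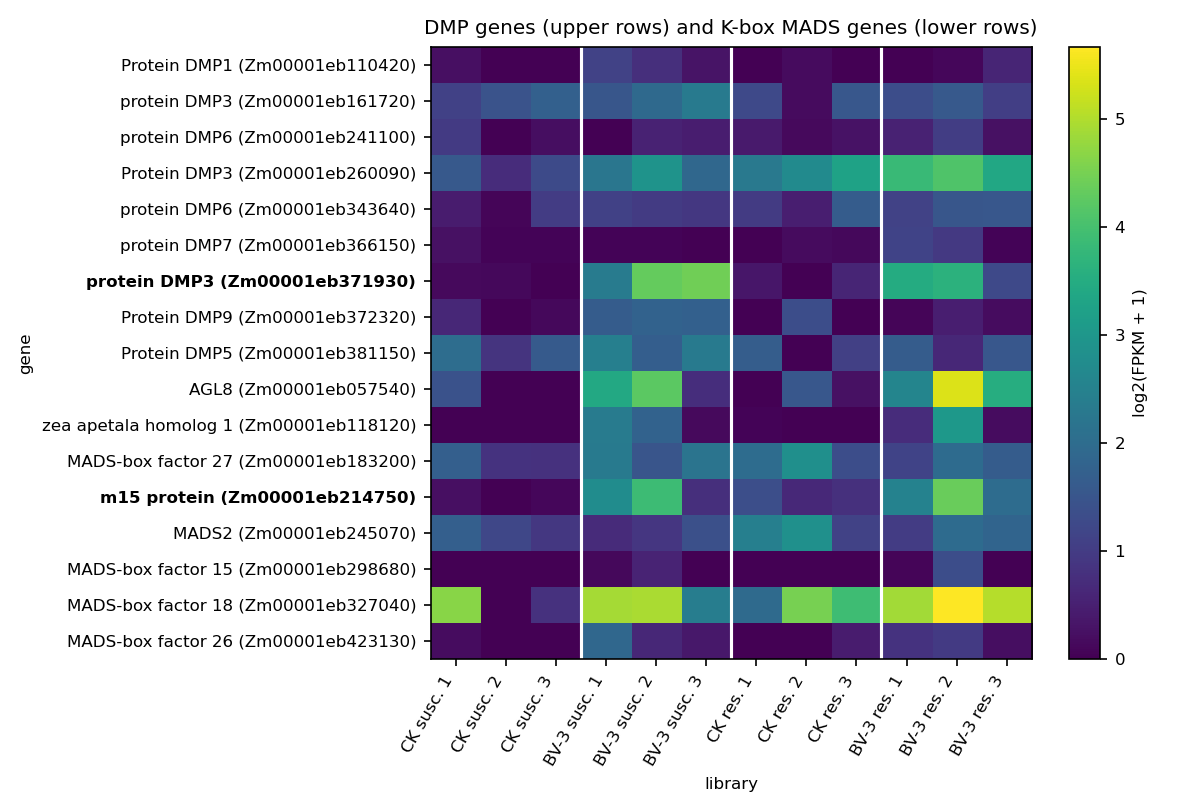
The heat map of DMP genes (upper rows) and MADS-box relatives of m15 (lower rows) shows log2(FPKM + 1) by gene and library, for genes that reached 1 FPKM in a library, with DMP3 and m15 in bold and white lines between groups. DMP3 is brighter in every BV-3 column than in the CK columns, and m15, AGL8 and MADS-box transcription factor 18 are each darkest of their group in the third BV-3 susceptible column and brightest of all in the second BV-3 resistant column.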

How the data were processed

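The authors deposited 1 table with a raw count and an FPKM value per gene and library, per the file headers; the authors normalised the FPKM values for length and depth. The submitters' processing notes name the build B73 RefGen, version 4; the aligner, the counter and any use of strand were not given in the sources used here. Gene identifiers are of a later annotation, so no coordinates are printed. The reference assembly Zm-B73-REFERENCE-NAM-5.0 served for gene order alone, with 6 of 6 symbols and 0 of 6 identifiers matched. Of 52934 lines, 2 stray ones were dropped.

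Counts were tested with edgeR 4.0.16 (R 4.3.3; TMM scaling, its own filter on low counts, 34291 genes kept) in 1 fit of 4 group means over 12 libraries, with Benjamini-Hochberg adjustment and calls at an adjusted p under 0.05. SEs were derived from the F value, and the common biological coefficient of variation was 0.682. P-values set a group difference against the spread between these samples, estimated over the 4 groups together. In CK susceptible that spread also holds the difference between libraries with unlike line markers. Alternatives used DESeq2 1.42.0, limma 3.58.1, other scaling and filters, and fewer libraries. A count of 0 means under 3 counts per library, and intervals cover counting error only.

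The 6 genes and the lists (search patterns over descriptions, some catching genes off the theme) were chosen with earlier results of these data known. List genes named are up to 4 called per list by smallest p, otherwise the 2 of highest mean FPKM, plus the 3 genes most like each of the 6. The genes beside LHT1, ABCG36 and m15, the further tyrosine N-monooxygenase, oxime monooxygenase, LHT, AGL8-like and clock genes, and the genes of rank 3 to 11 outside the 6 were chosen after their values were seen. Line markers were genes above 2 CPM in every BV-3 library of one class with at most 2 counts in any of the other, called present above 1 CPM.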

Additional observations from a re-analysis of the deposited data

How the results depend on the processing

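In the resistant class the 6 genes kept their direction under 21 alternatives each, except bHLH041 at 0.12 and ABCG36 at 0.43 without the third CK resistant library. Their log2 fold changes ranged from -1.67 to 0.12 for bHLH041, 2.47 to 5.74 for DMP3 (adjusted p 0.00283 to 0.921), -1.56 to 0.43 for ABCG36, 0.29 to 1.31 for LHT1, 1.84 to 4.72 for the tyrosine N-monooxygenase (adjusted p 0.214 to 0.923) and 1.93 to 3.57 for m15 (adjusted p 0.111 to 0.921). Alternatives that left out susceptible libraries alone could hardly move these fold changes, as each group has its own mean in the fit. Such alternatives are therefore no sign of stability. DESeq2 called 1 of the 6, DMP3, at 4.92, and edgeR 0. DESeq2 called 1044 genes in the resistant class, 7010 in the susceptible class and 1696 in their difference, against 0, 2125 and 0 in edgeR, and 15 and 97 list genes against 0 and 31. limma on log2(FPKM + 1) called 6 resistant genes and 2 differences, and with a pseudocount of 0.1 it called 5 and 1. The susceptible class fitted alone gave 1332 genes and 20 list genes. Without the second and the third CK susceptible libraries 0 genes and 0 list genes were called, and 1 and 0 when the second CK resistant library was left out as well; in these fits the lone CK library is assumed to vary like the other groups. The fitted values of the P450 Zm00001eb064510 then became 3.28 and 3.27, against a CK library at 0, so they depend on the prior count and measure no reversal. Leaving out 1 library at a time, edgeR called 0 to 3 genes in the resistant class, 0 to 2083 in the difference, 0 to 6945 in the susceptible class and 0 to 99 list genes there. The high end came without the first CK susceptible library (6945, 2083 and 99), followed by the second CK resistant library (5307 genes and 71 list genes). Omission of any 1 of the other 10 libraries left 0 to 76 genes and 0 to 1 list genes. The cause was not tested. Same-numbered libraries were treated as unpaired: 5 of 18 pairs had a correlation of deviations above 0.1 (range -0.186 to 0.552). The highest values lay between CK resistant and BV-3 resistant, at 0.5 for the first and 0.552 for the second replicates, with -0.044 for the third. A replicate block gave 546 genes and 10 list genes in the susceptible class, and 0 genes in the resistant class. In the susceptible class the log2 fold changes of the 6 were at least 2.36 in every alternative, lowest on the log2(FPKM + 1) scale for bHLH041, DMP3, ABCG36 and m15. That contrast chose the genes, so these values are a description and no test of stability. Alternatives that left out resistant libraries alone could hardly move them. Scaling by RLE size factors or DESeq2 moved the median log2 fold change of all genes by less than 0.1. At 27 to 37.8 M counts, the CK susceptible levels of bHLH041, DMP3 and m15 rest on few or 0 counts.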
